A study of Mus musculus with 8 samples.

Results

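The genes described here lie on both sides of Adcyap1r1 on mouse chromosome 6, the gene for the PACAP receptor PAC1R that is disrupted in the PAC1R KO mice. Members were the non-control probes of the array whose mm9 start, as printed with the array, lay in a 10 Mb window of chromosome 6 around that gene, under any gene name other than Adcyap1r1. There were 168 such probes under 132 gene names, of 39429 probes under 29608 names in all. Distance was measured from the start of the Adcyap1r1 probe, at position 55450829, so that the window reached about 5 Mb to either side, and the outermost members started at 50512563 and 60440324. The rule used position and gene name alone.

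The samples were palm skin of male C57BL/6 mice (WT) and male Adcyap1r1 -/- mice (KO), 9 to 10 weeks old. The skin was taken 30 or 60 min after 5 µL of vehicle, which was saline with 0.1% BSA, was injected into the footpad with or without 1e-07 mol/L PACAP. All the mice were anaesthetised with midazolam, medetomidine and butorphanol. The labels gave strain C57BL/6J for KO as well, while the breeding history of the KO allele was not given in the sources used here. Each genotype and time gave 1 vehicle RNA sample and 1 PACAP RNA sample, hybridised against each other on 2 dye-swapped arrays. The 8 arrays therefore carried 8 RNA samples, 4 per genotype. The study's methods give the number of mice injected per genotype, but not how many were behind each RNA sample. The p-values measure only the spread between these RNA samples, which may be partly technical.

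The WT arrays shared 1 slide and the KO arrays a different one, and the effect of the slide cannot be told apart from that of genotype in the KO and WT comparisons below. The share of green spots well above background was 54.0% to 60.5% on the WT arrays and 60.0% to 65.3% on the KO arrays. For red spots it was 78.6% to 91.6% in WT and 88.7% to 94.5% in KO. Over all tested probes, 2210 met the background filter given below through KO samples alone and 227 through WT samples alone. Dim probes were thus detected more often on the KO slide. The small number of arrays limits the precision. The skin label was borne out by the epidermal markers, of which 10 of 10 were above background. Their summed log2 level ranged from 18.45 to 18.72 in WT and from 18.19 to 18.94 in KO. Skeletal muscle markers were also present in all samples, at summed levels of 16.33 to 17.32 in WT and 16.09 to 16.95 in KO. The KO sample after 30 min of PACAP lay apart. It was the lowest of the 8 in the summed epidermal and muscle markers, at 18.19 and 16.09, and in those of fibroblasts (16.17) and of cartilage and bone (12.45). The median absolute difference between KO and WT over all tested probes was 0.27 in its matched comparison and 0.12 to 0.15 in the other 3. In such tissue samples, fewer cells of a type and less RNA per cell cannot be told apart.

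PAC1R is a receptor of the class B family, which binds peptide hormones and couples mainly to adenylyl cyclase. The cAMP formed activates protein kinase A, which phosphorylates CREB, a factor that binds the cAMP response element (CRE). The window around the receptor gene holds the genes of 2 further class B receptors, Ghrhr for growth hormone-releasing hormone and Crhr2 for corticotropin-releasing hormone and urocortins. It also holds the HoxA cluster, whose homeodomain factors set position along the body axis and the limb, and an array of vomeronasal receptor genes that are normally read in sensory neurons of the nose.

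The following sequences are the 250 bases before an annotated start of 3 members, written 5′ to 3′ in gene orientation. They were taken from RefSeq on GRCm38.p6, a later build than the mm9 of the probes. Hoxa10 and Hoxa13 are shown because their probes had KO levels below every WT level, and Mturn because it held more than 1 complete CRE. Capitals mark the CRE (TGACGTCA), the GC box (GGGCGG) and the TATA motif (TATAAA), searched on both strands.
Hoxa10, chr6:52240855-52241104, minus strand: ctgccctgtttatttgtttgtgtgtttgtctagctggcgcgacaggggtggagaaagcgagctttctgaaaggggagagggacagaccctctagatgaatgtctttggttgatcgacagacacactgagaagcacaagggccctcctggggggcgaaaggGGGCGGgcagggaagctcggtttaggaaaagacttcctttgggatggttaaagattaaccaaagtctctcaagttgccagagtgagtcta
Hoxa13, chr6:52260881-52261130, minus strand: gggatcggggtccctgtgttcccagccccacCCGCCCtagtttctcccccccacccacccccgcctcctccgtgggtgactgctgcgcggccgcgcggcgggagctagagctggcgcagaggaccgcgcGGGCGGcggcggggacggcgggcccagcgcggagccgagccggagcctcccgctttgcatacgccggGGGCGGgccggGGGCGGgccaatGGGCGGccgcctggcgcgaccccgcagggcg
Mturn, chr6:54681374-54681623, plus strand: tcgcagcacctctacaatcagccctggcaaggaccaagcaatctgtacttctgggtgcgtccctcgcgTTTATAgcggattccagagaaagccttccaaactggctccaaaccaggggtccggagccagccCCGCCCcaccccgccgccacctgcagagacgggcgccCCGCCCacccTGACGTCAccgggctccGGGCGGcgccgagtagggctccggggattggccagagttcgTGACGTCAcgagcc
The Hoxa10 stretch held 1 GC box and 7 CpG. It lies before the outer of 2 listed Hoxa10 starts, and the stretch before the other one, which overlaps an annotated gene, held a TATA motif and 20 CpG. The Hoxa13 stretch held 5 GC boxes and 35 CpG at 80% G and C. The Mturn stretch held 2 CREs, beginning 72 and 14 bases before the start, beside 3 GC boxes and 1 TATA motif. Over the promoters of 95 member genes with an entry, 4 of 115 stretches held a CRE (3.48%), against 1.55% of 32851 stretches of the same length over the genome. The 4 genes were Cycs, Creb5, Mturn and Abcg2. The GC box was in 33% of the member stretches and 32.7% of all, and the TATA motif in 24.3% and 12.4%. Many of the 28 member genes with the TATA motif belonged to the vomeronasal receptor array. No match of one motif shared bases with a match of another in the stretches shown, and a match describes the sequence only.

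The Adcyap1r1 probe was read first, as a check of the labels. Its log2 level in WT was 8.28 and 8.27 at 30 min with vehicle and PACAP, and 8.67 and 8.76 at 60 min. In KO the 4 levels in the same order were 7.98, 7.91, 8.56 and 8.42. KO was lower in 4 of 4 matched comparisons, but the groups overlapped, since the 60 min KO samples lay above the 30 min WT samples. The difference of -0.28 ± 0.07 on the log2 scale (SE, n = 4 RNA samples per genotype) gave an unadjusted p of 0.0095 and an adjusted p of 0.127 in the limma fit over all probes. The probe stayed well above background in 8 of 8 KO channels. Where the deletion lies relative to the probe was not given in the sources used here, so the probe may read sequence outside the deleted part, and then it checks nothing.

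The levels in KO and WT were next compared with time and treatment matched. Of the 168 member probes, 83 under 64 gene names were well above background on both arrays of at least 1 RNA sample and entered the limma fit. No member passed an adjusted p of 0.05, and neither did any of the 26348 probes tested (0%). The smallest adjusted p was 0.0924, in the members as over all probes, and 1 member lay below an adjusted p of 0.1 (1.2%, background 2.33%). At an unadjusted p below 0.05 there were 15 member probes of 83 (18.1%), against 5810 probes or 22.1% of all tested. Of the 15, 11 were higher in KO (13.3%, background 11.0%) and 4 were lower (4.82%, background 11.0%). The members were thus called about as often as the array as a whole. Of the 83, 6 met the background filter through KO samples alone, the Mindy4 and Vmn1r11 probes among them. Over all probes that entered this way, 20.1% were higher and 0.407% lower in KO at that p. Of the 77 that met it in both genotypes, 9 were higher (11.7%, against 10.3% of all such probes) and 4 lower (5.19%, against 11.7%).

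Direction gave the same picture. KO and WT did not overlap for 14 member probes (16.9%), against 17.5% of all tested. These were 10 with every KO sample above every WT sample (background 9.14%) and 4 with every KO sample below (background 8.37%). The 4 matched comparisons had 1 direction for 27 member probes (32.5%, background 39.1%), which was higher in KO for 18 (21.7%, background 20.6%) and lower for 9 (10.8%, background 18.5%). These counts were not split by how a probe met the background filter. Mindy4, which met it through KO alone, was among the 10 and the 18, and Vmn1r11 among the 18. The median difference was 0.03 over the members and 0.01 over all probes, and the median absolute difference was 0.13 and 0.12. Only 2 member probes differed by 0.5 or more on the log2 scale, those of Cbx3 and Hoxa10 (2.41%, background 2.99%). The 95% interval of the difference lay within 1 log2 unit either way for 83 of 83 member probes, and within 0.5 for 70 of them.

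Of 26 other settings, which were 22 distinct fits, 2 made calls. With the processed signals of the scanner software scaled to their 75th percentile, 12 member probes passed the adjusted threshold (14.5%, background 10.1%). The 6 probes that had met the background filter through KO alone were all among these 12, so that their calls are a description. With the 16 array channels kept apart and the array number, which is the dye orientation, as a block, 7 passed (8.43%, background 12.1%). That fit counted the 2 arrays of each RNA sample as separate values. With the 60 min samples alone, 29 member probes had an unadjusted p below 0.05 (34.9%, background 29.5%), and with the 30 min samples alone 6 did (7.23%, background 9.51%). Without the KO sample after 30 min of PACAP, a setting chosen after seeing the data, it was 24 (28.9%, background 28.5%), and the smallest adjusted p of a member was 0.0587.

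**Figure D1:**
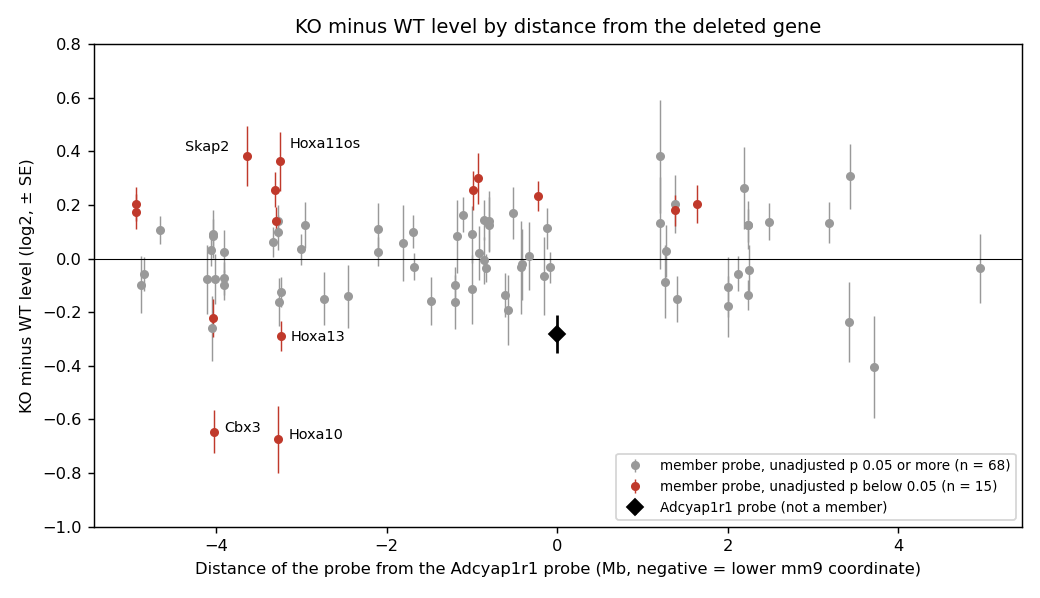
The difference between KO and WT (log2, vertical axis, bars show SE) is plotted against the distance of each of the 83 tested member probes from the Adcyap1r1 probe (Mb, horizontal axis). Red points had an unadjusted p below 0.05 and the black diamond is Adcyap1r1 itself. The probes of Cbx3 and Hoxa10 lie lowest, at -0.65 and -0.67, and both are over 3 Mb away.

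It was next examined whether differences were more frequent close to the disrupted gene. Within 1 Mb, 20 probes were tested, all at lower coordinates, and 3 of them (15%) had an unadjusted p below 0.05. From 1 to 2.5 Mb it was 2 of 28 (7.14%), and from 2.5 to 5 Mb it was 10 of 35 (28.6%). The same share was 24.3% of 74 probes at 5 to 10 Mb, 25.2% of 202 at 10 to 20 Mb and 22.3% of 950 farther along the chromosome. The probes nearest to the gene therefore had no larger share than those far from it or than all probes. Mindy4 was one of the 3 within 1 Mb and Vmn1r11 one of the 2 from 1 to 2.5 Mb, and both had met the filter through KO alone. Among probes that met it in both genotypes the shares were 2 of 19 (10.5%), 1 of 26 (3.85%) and 10 of 32 (31.2%), and 23.5%, 25.4% and 21.8% in the 3 bins farther away. All 10 of the 2.5 to 5 Mb probes lay on the side of lower coordinates, among 30 tested there. Of 5 tested at higher coordinates, 0 had an unadjusted p below 0.05 in limma. The absolute difference had a Pearson correlation of 0.189 and a Spearman correlation of 0.129 with distance over the 83 probes, which share their 8 RNA samples and in part their genes.

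**Figure D2:**
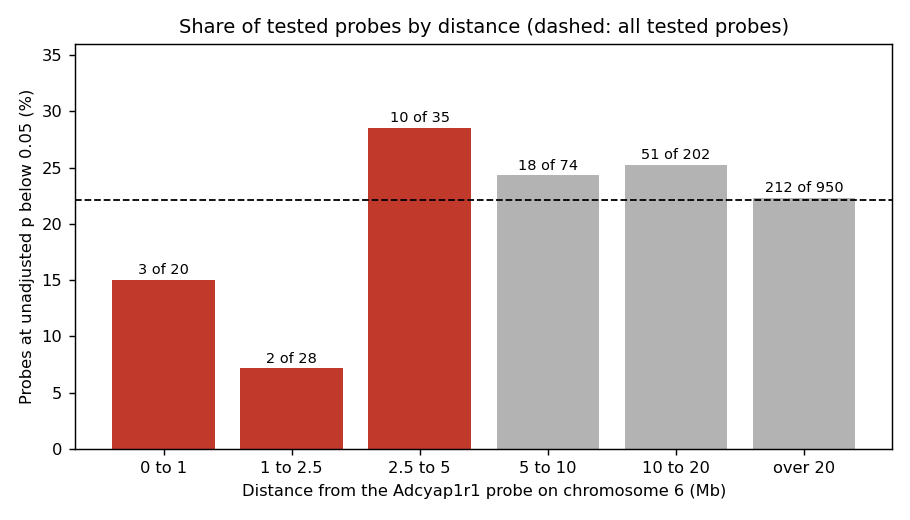
Bars give the share of tested chromosome 6 probes with an unadjusted p below 0.05 (%, vertical axis) by distance from the Adcyap1r1 probe (Mb, horizontal axis). Red bars are members, grey bars lie outside the window, the counts stand above the bars, and the dashed line is the 22.1% of all tested probes. The 2 bins nearest to the gene lie below the line.

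The nearest tested genes on the side of lower coordinates were 6430584L05Rik, a RIKEN transcript 0.09 Mb away, Ghrhr at 0.12 Mb and Aqp1, a water channel, at 0.15 Mb. The difference between KO and WT was -0.03 for 6430584L05Rik, with a 95% interval of -0.18 to 0.11. It was 0.11 for Ghrhr, with an interval of -0.08 to 0.31, and the Ghrhr probe was well above background in 6 of 8 WT and 7 of 8 KO channels. Over the other settings Ghrhr ranged from -0.10, with 1 array left out, to 0.61 with the processed signals. Aqp1 was a bright probe, at 13.78 ± 0.17 in WT and 13.72 ± 0.20 in KO (log2, SD, n = 4), and its difference of -0.06 had an interval of -0.43 to 0.31. All 3 intervals held 0. Without the KO sample after 30 min of PACAP, the Aqp1 difference was 0.08.

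Crhr2, the other class B receptor in the window at 0.41 Mb, was read at 7.96, 8.18, 8.0 and 8.04 in WT (30 min vehicle, 30 min PACAP, 60 min vehicle, 60 min PACAP). The KO samples, listed likewise, were at 8.12, 7.72, 8.13 and 8.12. The groups overlapped, with the KO sample after 30 min of PACAP below the other 7. The difference was -0.02 with an interval of -0.36 to 0.32, and it was 0.13 without that sample. Of the 16 tested probes of class B receptor genes elsewhere in the genome, Adcyap1r1 included, 2 were higher and 3 lower in KO at an unadjusted p below 0.05 (31.2%, background 22.1%), and 0 passed the adjusted threshold in limma.

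At higher coordinates the nearest tested genes were Lsm5, a component of the Lsm ring that binds U6 small nuclear RNA, at 1.2 Mb, Avl9, linked to late secretory transport, at 1.26 Mb and Kbtbd2, a BTB and kelch domain protein, at 1.28 Mb. The brain genes between them and Adcyap1r1, among them Neurod6, Ppp1r17 and Pde1c, did not pass the background filter. The 2 Lsm5 probes differed by 0.38, with an interval of -0.16 to 0.92, and by 0.13, with an interval of -0.31 to 0.57. Avl9 differed by -0.09 (interval -0.43 to 0.26) and Kbtbd2 by 0.03 (interval -0.22 to 0.27). At both Lsm5 probes the KO sample after 30 min of PACAP, at 11.62 and 12.13, lay above the other KO samples. Without it the Lsm5 probes differed by 0.15 and -0.06 and Avl9 by 0.06.

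The 10 member probes with the smallest p are given in full, as probes that did not pass. Cbx3 encodes the heterochromatin protein HP1 gamma. Its probe at chr6:51431757-51431816 read 9.30, 9.42, 9.05 and 9.32 in WT, in the order given for Crhr2 that is kept below. Its KO levels were 8.57, 8.73, 8.63 and 8.57. Every KO sample lay below every WT sample, and the difference was -0.65 ± 0.08 (SE), or 0.639-fold, with an adjusted p of 0.0924. A second Cbx3 probe, at chr6:51433585-51433644, read 12.66, 12.90, 12.52 and 12.74 in WT and 12.80, 12.63, 12.50 and 12.57 in KO. There the groups overlapped and the difference was -0.08 ± 0.09, so that the probes of this gene disagreed. Cbx3 also has processed pseudogenes of near-identical sequence, and which copies a probe reads is uncertain.

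Hoxa10, a posterior member of the cluster, was read at 7.94, 7.89, 8.30 and 8.21 in WT and at 7.51, 7.49, 7.34 and 7.30 in KO (chr6:52181922-52181981). The groups did not overlap, and the matched differences were -0.43 and -0.40 at 30 min and -0.96 and -0.91 at 60 min. The difference was -0.67 ± 0.13 (SE), or 0.627-fold, with an adjusted p of 0.1. Hoxa13, the most posterior member and a factor of the developing paw, was read at 6.75, 6.72, 6.70 and 6.71 in WT and at 6.52, 6.37, 6.42 and 6.41 in KO (chr6:52208980-52209039). The probe was well above background in 8 of 8 WT and 7 of 8 KO channels. These groups did not overlap either, with a difference of -0.29 ± 0.06 and an adjusted p of 0.103. The second Hoxa13 probe had 1 direction in 4 of 4 matched comparisons and a difference of -0.13 ± 0.06 (SE).

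Mindy4, Scrn1 and Fkbp14 were also among the 10. Mindy4, a predicted deubiquitinase and at 0.22 Mb the nearest of the 10, was read at 5.97, 5.96, 6.05 and 6.05 in WT and at 6.15, 6.14, 6.34 and 6.33 in KO. Every KO sample lay above every WT sample, by 0.23, but the probe was well above background in only 3 of 8 WT and 5 of 8 KO channels and entered the fit through KO alone. Its difference and its place among the 10 are therefore a description. Scrn1, a secernin, was read at 7.89, 7.76, 7.89 and 7.78 in WT and at 7.96, 8.05, 8.21 and 8.12 in KO. Its groups did not overlap (0.25 ± 0.07, adjusted p = 0.148 in limma), while the second Scrn1 probe differed by 0.09 ± 0.11. Fkbp14, a collagen-folding peptidyl-prolyl isomerase of the endoplasmic reticulum, was read at 11.09, 10.98, 10.90 and 10.92 in WT and at 11.15, 11.42, 11.35 and 11.16 in KO. The difference was 0.30 ± 0.10, with an adjusted p of 0.172 in limma, against 0.02 ± 0.10 at the second probe.

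Skap2, an adaptor of Src-family signalling that is abundant in myeloid cells, was read at 10.08, 10.09, 10.06 and 10.20 in WT and at 10.27, 10.80, 10.43 and 10.45 in KO. Every KO sample lay above every WT sample, and the sample after 30 min of PACAP was the highest. The difference was 0.38 ± 0.11, or 1.30-fold, with an adjusted p of 0.153 in limma. The 6 neutrophil markers had summed levels of 13.48 to 14.62 in WT and 13.51 to 15.36 in KO, and their part in the Skap2 values was not tested. Cycs, cytochrome c, was read at 13.99, 14.14, 14.20 and 14.18 in WT and at 14.32, 14.38, 14.29 and 14.34 in KO by its brighter probe. It differed by 0.20 ± 0.06 there and by 0.18 ± 0.07 at the other tested probe, with all KO samples above all WT samples at both, the only gene of the 10 whose 2 tested probes both had an unadjusted p below 0.05. Cycs too has processed pseudogenes, which the probes may read.

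**Figure D3:**
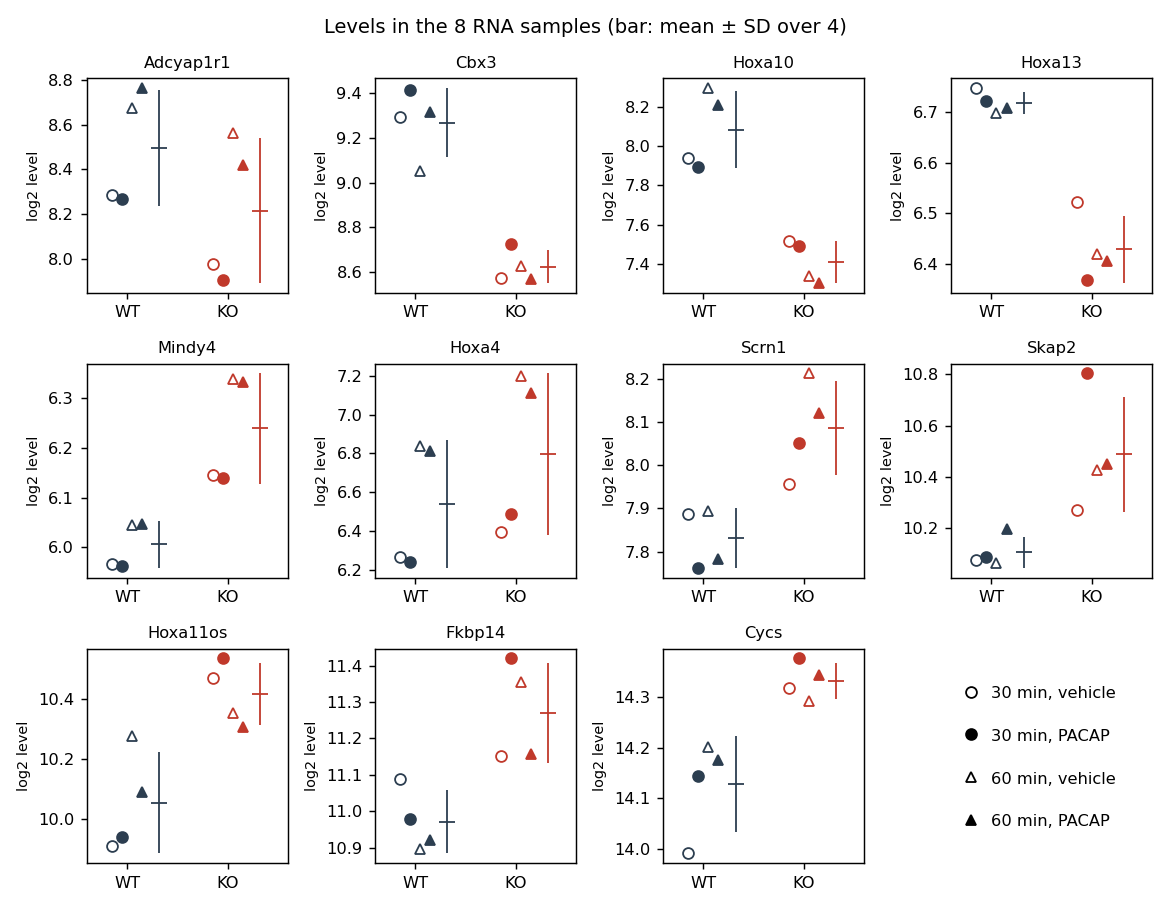
Log2 levels in each of the 8 RNA samples are shown for the Adcyap1r1 probe and the 10 member probes with the smallest p, with a separate vertical axis per probe. Circles are 30 min, triangles 60 min, filled symbols PACAP and open symbols vehicle, and the bars are the mean ± SD of 4. In the panels of Cbx3, Hoxa10 and Hoxa13 every KO symbol lies below every WT symbol, by differences of 0.65, 0.67 and 0.29.

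The agreement between probes was counted over the 15 member probes with an unadjusted p below 0.05. Of these, 7 belonged to a gene with another tested probe. The other probes had the same sign in 6 of the 7 cases and an unadjusted p below 0.05 in 2, both of them Cycs. The exception in sign was Hnrnpa2b1, an RNA-binding splicing factor encoded head to head with Cbx3. Its probe at chr6:51413302-51413361 differed by -0.22 ± 0.07, with KO lower in 4 of 4 matched comparisons. The 2 other Hnrnpa2b1 probes differed by 0.09 ± 0.09 and 0.08 ± 0.06.

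The HoxA cluster was represented by 17 probes of 13 genes, and 9 probes of 7 genes were tested. At an unadjusted p below 0.05, 2 were higher in KO (Hoxa4 and Hoxa6) and 2 lower (Hoxa10 and a Hoxa13 probe), or 22.2% each way against 11.0% of all probes. The 5 probes of Hoxa3, Hoxa4, Hoxa6 and Hoxa9 had differences above 0, from 0.06 to 0.26, and the 4 of Hoxa10, Hoxa11 and Hoxa13 had differences below 0, from -0.67 to -0.13. The Hoxa3 probe and 1 Hoxa9 probe met the background filter through KO alone, so that their direction is a description, and Hoxa3 fell to -0.02 with 1 array left out. Hoxa7, which lies between Hoxa6 and Hoxa9 and was too dim to test, was at a mean of 6.43 in WT and 6.26 in KO. This arrangement of signs was seen in the values and was not tested. With the processed signals the 5 differences above 0 ran from 0.26 to 1.26, Hoxa10 was at -0.92 and the first Hoxa13 probe at -0.70. Hoxa4 was read at 6.27, 6.24, 6.84 and 6.81 in WT and at 6.39, 6.49, 7.20 and 7.11 in KO, so that time separated its samples more than genotype did, and KO was higher in 4 of 4 matched comparisons (0.26 ± 0.06, adjusted p = 0.129 in limma).

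Hoxa11os, the antisense transcript of Hoxa11, was read at 9.91, 9.94, 10.28 and 10.09 in WT and at 10.47, 10.53, 10.35 and 10.31 in KO. Its groups did not overlap (0.36 ± 0.11, adjusted p = 0.163 in limma), while Hoxa11 itself differed by -0.16 ± 0.09. Several HoxA probes were dim, and not only anterior ones. Mean WT levels were 6.54 for Hoxa4, 6.37 for Hoxa6 and 6.50 and 6.72 for the Hoxa13 probes. Hoxa3 was well above background in 4 of 8 WT channels, Hoxa4 in 5, Hoxa6 in 5 and 1 of the Hoxa9 probes in 4. Probes of the other Hox clusters, on other chromosomes, had a median difference of -0.05 over 19 tested. At an unadjusted p below 0.05, 1 was higher and 3 were lower (5.26% and 15.8%, background 11.0% each way). Their differences ran from -0.49 to 0.29. These 4 were named after their values were seen. The 3 lower ones were Hoxc9 (-0.34), Hoxc10 (-0.49) and Hoxc11 (-0.43) on chromosome 15. The higher one was Hoxd13 (0.24), the HoxD paralogue of Hoxa13.

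**Figure D4:**
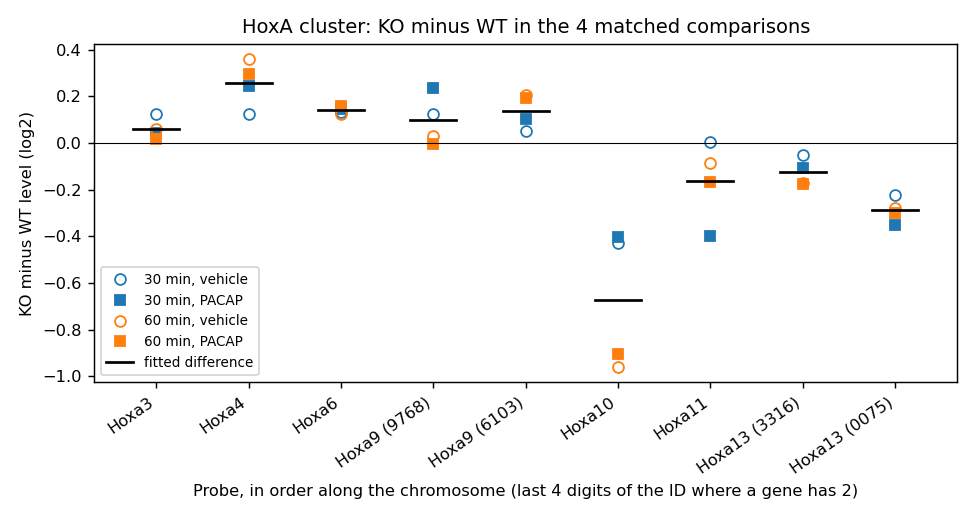
The difference between KO and WT (log2, vertical axis) is shown for the 9 tested HoxA probes in chromosomal order (horizontal axis), with 1 symbol for each of the 4 matched comparisons and a line at the fitted difference. Hoxa4 and Hoxa6 lie above 0 in 4 of 4 comparisons, and Hoxa10 and both Hoxa13 probes lie below 0 in 4 of 4.

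The other genes of the window were grouped by role. Of 23 tested probes of 16 genes for RNA handling, protein folding and general metabolism, 5 were higher and 2 lower in KO at an unadjusted p below 0.05, or 21.7% and 8.7% against 11.0% and 11.0% of all probes. One of the 5 was the Mindy4 probe. Of the 22 probes of the list that met the filter in both genotypes, 4 were higher and 2 lower (18.2% and 9.09%, against 10.3% and 11.7%). Their median difference was 0.09 against 0.01 over all probes. Besides those above, Nt5c3, a pyrimidine nucleotidase, was read at 13.65, 13.60, 13.62 and 13.57 in WT and at 13.82, 13.84, 13.83 and 13.68 in KO, a difference of 0.18 ± 0.06 with an adjusted p of 0.173 in limma. Gars, the glycyl-tRNA synthetase, differed by -0.03 ± 0.17. Of 16 tested probes of signalling and cytoskeletal genes, 2 were higher (Skap2 and Scrn1, 12.5%, background 11.0%), 0 lower (background 11.0%), and the median difference was 0.03.

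Of 9 tested probes of transport and metabolic genes, 0 had an unadjusted p below 0.05 in limma (0%, background 22.1%), and the median difference was -0.06. Among them were Abcg2, an efflux transporter, at 0.13 ± 0.08, Inmt, the indolethylamine N-methyltransferase, at 0.01 ± 0.13, and Tigd2, derived from a transposase, at -0.40 ± 0.19. The Tigd2 levels were spread more widely than those of most members, from 7.44 to 8.25 in KO and from 8.15 to 8.52 in WT. The 3 member genes with the brightest probes were LF195525 at 15.48 ± 0.11 in WT (SD), Creb5 at 14.80 ± 0.14 and Ppm1k at 14.69 ± 0.09. LF195525 is an array transcript with no gene symbol, Creb5 is a CRE-binding factor and Ppm1k is the phosphatase of the branched-chain keto acid dehydrogenase. The difference between KO and WT was -0.04 for LF195525, with an interval of -0.37 to 0.29. It was 0.06 for Creb5 (interval -0.30 to 0.42) and -0.11 for Ppm1k (interval -0.39 to 0.18).

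The vomeronasal receptor array gave 30 probes of 28 genes, of which only Vmn1r11 and Vmn1r25 had a tested probe. Vmn1r11 was read at 5.84, 5.86, 6.08 and 6.02 in WT and at 5.94, 5.94, 6.38 and 6.35 in KO, with 1 of 8 WT and 6 of 8 KO channels well above background. The Vmn1r11 probe met the background filter through KO alone, so that its difference of 0.20 is a description. Vmn1r25 differed by 0.14 ± 0.07 (SE). Vomeronasal receptor probes elsewhere in the genome had a median difference of 0.13 over 54 tested, with 45 higher in KO. At an unadjusted p below 0.05, 22 of them were higher and 2 lower (40.7% and 3.7%, background 11.0% each way), but 22 of the 54 had met the filter through KO alone. Of the 31 that met it in both genotypes, 10 were higher and 2 lower (32.3% and 6.45%, against 10.3% and 11.7% of all such probes). In all, 85 member probes were not tested, 28 of them vomeronasal, and 20 of the 85 were well above background in no channel of any array.

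The edge of the window was set by position. The last tested members inside it were Cycs at the lower end, described above, and LF195525 at the upper end. Just outside at the lower end, Osbpl3 was read by 2 probes with KO at 0.947-fold and 1.01-fold of WT. Beyond the upper end, Mmrn1, multimerin, was at 1.18-fold of WT.

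The response to PACAP was then examined in each genotype and time, as the ratio of the PACAP to the vehicle sample on the 2 dye-swapped arrays. By the thresholds of the study, which ask for a mean ratio that reaches 2.0-fold or falls to 0.5-fold and for an error-model p below 0.01, here on both arrays and in 1 direction, 0 of 168 member probes were called in any of the 4 comparisons. The background was low as well. In WT, 0.254% of all probes were called up and 0.0964% down at 30 min, and 0.583% and 0.109% at 60 min. In KO, 0.601% were called up and 0.107% down at 30 min, and 0.142% and 0.150% at 60 min. The share of members called was thus near the background in each comparison.

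The member ratios were between 0.712-fold and 1.70-fold in WT at 30 min and between 0.836-fold and 1.57-fold at 60 min. In KO they were between 0.547-fold and 1.53-fold at 30 min and between 0.761-fold and 1.31-fold at 60 min. The lowest ratio, 0.547-fold, was of a Hoxa13 probe in KO at 30 min. It came from 1 of the 2 arrays (1.34-fold and 0.223-fold), so that the arrays opposed each other. Crhr2 at the same point was at 0.679-fold and 0.650-fold on the 2 arrays, and Herc3, a HECT ubiquitin ligase, at 0.583-fold and 0.683-fold, and these pairs of arrays matched in direction. Each comparison had 1 RNA sample per arm and therefore no test over samples.

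**Figure D5:**
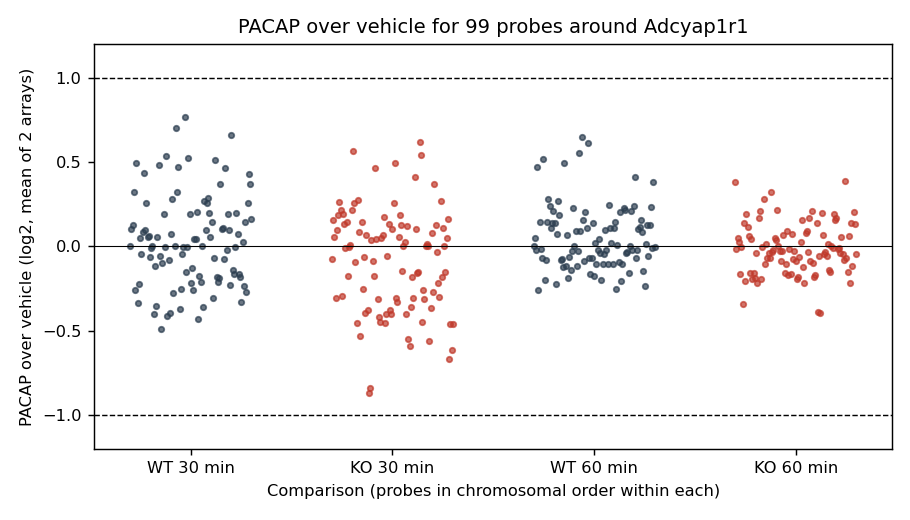
PACAP over vehicle (log2, mean of 2 arrays, vertical axis) is shown for 99 member probes in each of the 4 comparisons (horizontal axis), in chromosomal order within each comparison. WT is dark and KO red, and the dashed lines mark 2.0-fold and 0.5-fold. All points lie between the dashed lines, and the spread is widest in KO at 30 min, from 0.547-fold to 1.53-fold.

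Over the 4 comparisons together, 99 member probes of 73 genes could be fitted in limma, beside 30351 probes in all. For the mean PACAP ratio, 0 members passed the adjusted threshold and 0 of 99 had an unadjusted p below 0.05 (background 2.23%). The ratio had 1 direction in 4 of 4 comparisons for 4 members (4.04%, background 7.63%). For the difference of the PACAP ratio between KO and WT, 0 members passed (smallest adjusted p over all probes 0.839). On simulated data this fit found 0 of 200 probes with a log2 change of 2, so the absence of calls decides little. An unadjusted p below 0.05 was found for 6 of 99 (6.06%, background 3.20%). All 6 had the lower ratio in KO. They were probes of Creb5, Chn2 (a Rac GTPase-activating protein), Tril (a co-receptor of Toll-like receptors), Herc3, Herc6 and an Ensembl transcript without a symbol. The Creb5, Chn2, Tril and Herc6 probes were dim, at mean WT levels of 6.38, 6.48, 6.44 and 6.12. This Herc6 probe was too dim for the KO and WT fit. In KO the ratios of the 6 were 0.631-fold to 0.827-fold at 30 min, where the PACAP sample lay apart, and 0.924-fold to 1.12-fold at 60 min. The 2 arrays of a comparison opposed each other for the Tril probe in WT, where they gave 4.03-fold and 0.476-fold after 30 min. After 60 min they gave 2.94-fold and 0.837-fold. They did so for Herc6 in KO at both times. Over all members in the fit, 48.7% of comparisons had arrays of opposite direction, against 47.7% over all probes.

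Creb5 was the one with the smallest p. Its probe at chr6:53347149-53347208 had a PACAP ratio of 1.63-fold and 1.47-fold in WT at 30 and 60 min and of 0.805-fold and 0.943-fold in KO. The WT ratio at 60 min came from opposed arrays (2.51-fold and 0.862-fold). The difference between the genotypes was -0.83 ± 0.20 on the log2 scale, with an unadjusted p of 0.0064 and an adjusted p of 0.839 in limma. The bright Creb5 probe was at 1.25-fold and 1.06-fold in WT and 0.747-fold and 0.980-fold in KO, a difference of -0.43 with an adjusted p of 0.839. Its arrays opposed each other in 3 of the 4 comparisons, as in WT at 30 min (1.71-fold and 0.918-fold). The other Creb5 probe in the fit had a difference of 0.02. Chn2 was at 1.70-fold and 1.53-fold in WT and at 0.759-fold and 0.991-fold in KO, a difference of -0.90 ± 0.22 (SE). Its WT arrays matched in direction at both times. The brighter Chn2 probe was at 0.997-fold and 1.08-fold in WT and at 0.730-fold and 0.890-fold in KO, a difference of -0.36 ± 0.21 (SE), and the third Chn2 probe had a difference of 0.05. The probes of each gene thus differed in the size and sign of this difference.

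The 4 members with a CRE before their start differed in their PACAP ratios. In WT at 30 min a Mturn probe, at 0.742-fold, lay near the lower end of the 99 members. A Creb5 probe, at 1.63-fold, lay near the upper end there. Mturn, a regulator of neural differentiation whose stretch held 2 CREs, was at 0.742-fold, 1.14-fold, 0.873-fold and 0.919-fold (WT 30 min, KO 30 min, WT 60 min, KO 60 min) by 1 probe. It was at 0.884-fold, 1.09-fold, 0.932-fold and 0.862-fold by the other. Cycs was between 0.984-fold and 1.09-fold by its brighter probe and Abcg2 between 0.901-fold and 1.02-fold. The Creb5 ratios are given above, and none of the 4 genes was called in any comparison.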

How the data were processed

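Palm skin RNA of WT and KO mice was measured on 8 two-colour Agilent whole mouse genome arrays of the 4×44K design (mm9). The authors used Agilent Feature Extraction, version 11.0.1.1 per the labels and 12.0.3.1 per the file headers, while the study's methods name a different version from both. The deposited intensities were spot mean and local background signals and processed signals after background subtraction and LOWESS dye normalization. The deposited log10 ratios of Cy5 over Cy3 carried an error-model p-value for each spot, also made by the authors. The series table held the same log10 ratios.

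Intensities were corrected with normexp (offset 50), normalized by loess within and Aquantile between arrays in limma 3.58.1 (R 4.3.3), and averaged over spots and dye swap. The fit held genotype and the time and treatment cell, with the hybridised pair as a random block (consensus correlation 0.13, 3 residual degrees of freedom). P-values were adjusted by Benjamini-Hochberg over all tested probes. Array numbers mark dye orientation: same-numbered arrays deviated together, with correlations of 0.14 to 0.88 between pairs. PACAP ratios were the deposited log ratios turned to PACAP over vehicle. Of 132 gene names, 111 matched a RefSeq symbol of GRCm38.p6. Probes were not placed in exons, since no mm9 annotation was used here.

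The genes named were the 10 smallest p, as fewer passed, the 3 nearest tested genes on each side, the genes of role lists, any PACAP call and the 3 brightest. Members, lists and tests were chosen with earlier results of these data known. On simulated data with 200 changed probes of 26348, the genotype fit found 56 at a log2 change of 0.5, 164 at 1 and 192 at 2, with 6, 27 and 12 false calls. With 200 changed probes of 30351, the mean PACAP fit found 188 at a log2 change of 2. The fit of the PACAP difference between genotypes found 0 at 2 and 143 at 3. Alternatives covered background correction, scaling, filter, blocks and left-out arrays.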

Additional observations from a re-analysis of the deposited data

Results flagged for a closer look

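Among the 31 named probes, 62 groups of 4 RNA samples were examined for a sample far from the other 3, a check that flags about 1 group in 20 by chance, and 5 stood out. In 4 of them the sample was KO after 30 min of PACAP, which also lay apart in marker sums and over all probes. Crhr2 was at 7.72 there against 8.12 to 8.13 in the other KO samples. The 2 Lsm5 probes were at 11.62 against 11.01 to 11.07 and at 12.13 against 11.59 to 11.61. Avl9 was at 7.94 against 8.25 to 8.27. In WT, the LF195525 probe was at 15.32 with vehicle at 30 min against 15.52 to 15.55.

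For 9 named probes the PACAP effect was of one sign at both times in WT and of the opposite sign at both times in KO. This was so for 19 of the 99 members in the fit (19.2%, background 12.0%). The difference (log2, KO minus WT) was -0.83 and -0.43 for 2 Creb5 probes, -0.54 for Avl9, -0.50 for Crhr2, -0.49 for Ppm1k, -0.35 for Hoxa11, -0.32 for Kbtbd2, 0.39 for Mindy4 and 0.55 for Lsm5. The limma test of the difference gave an adjusted p of 0.839 for all of them except Mindy4, whose difference was not tested because its probe did not pass the filter of that fit.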

How the results depend on the processing

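No member passed the adjusted threshold for KO against WT in 24 of 26 other settings. The 26 were 22 distinct fits, since leaving out a hybridised pair repeats the fit of the other time alone. With Feature Extraction processed signals the count over all probes went from 0 to 2674 and that of members from 0 to 12 (Vmn1r11, Hoxa6, Tril, Mindy4, Cbx3, Hoxa3, Hoxa9, Hoxa10, Hoxa4, G930045G22Rik, 1700094M24Rik and a probe without a gene name). The median of all probes was then 0.09. Among the 12, the probes of Vmn1r11, Tril, Mindy4, Hoxa3, Hoxa9 and 1700094M24Rik had met the background filter through KO alone. With the replicate block, in which array numbers pair the dye orientations, the counts were 3195 and 7 (Skap2, Scrn1, Hoxa13, Mindy4, Cbx3, Hoxa11os and Hoxa10). Of these, Mindy4 had met the background filter through KO alone. The Adcyap1r1 probe also passed in that limma fit, with an adjusted p of 0.0182, and in no other setting. Of the 11 probes followed in full, Adcyap1r1 and the 10 members, each kept its direction in every other setting it was fitted in. The 10 members were chosen by their p in the main fit, and the other settings reuse the same RNA samples. Their kept direction therefore tests nothing. Cbx3 ranged from -0.72 to -0.57, Hoxa10 from -0.93 to -0.42 and Hoxa13 from -0.70 to -0.24, while Hoxa4 ranged from 0.06 to 1.26 and Mindy4 from 0.18 to 1.1. Of 20 other named probes, 13 turned sign in at least 1 setting, among them Aqp1 (-0.33 to 0.20), Ghrhr (-0.10 to 0.61), Hoxa3 (-0.02 to 0.64), Crhr2 (-0.19 to 0.15), Avl9 (-0.29 to 0.12) and the bright Creb5 probe (-0.15 to 0.26). With processed signals Hoxa6 at 0.94 and the Hoxa9 probes at 0.26 and 0.80.

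By 1 array alone, the PACAP counts of members were 1 to 3 in WT at 30 min, 2 to 6 in KO at 30 min, 1 to 2 in WT at 60 min and 2 in KO at 60 min. As shares these were 0.595% and 1.79% (background 1.55% and 2.21%), 1.19% and 3.57% (2.23% and 3.04%), 0.595% and 1.19% (2.12% and 1.72%), and 1.19% on each array (1.78% and 1.13%). LF195506 was called in 7 of these 8 cases, up on every second array and, where called, down on the first. The PACAP fits called no member in any setting. Over all probes, the fit of the KO minus WT difference called 17 with time as covariate and 0 to 170 with 1 pair left out (83 without WT at 60 min), and the mean fit called 0 to 1. The cause was not tested. Depth is set by signal over background: 85 member probes were too dim to test.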
